A study of Mus musculus with 8 samples.

Results

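The genes described here are 47 markers of the cells of skeletal muscle that are not muscle fibres, and the data are their chromatin accessibility in mouse gastrocnemius. They were listed by cell type, and every region that the deposited table annotates to one of them was taken. The list holds 15 endothelial, 11 fibro-adipogenic, 10 immune, 6 mural, 2 Schwann cell and 3 adipocyte genes. The table gave them 819 of its 489637 regions, which is 355 endothelial, 158 fibro-adipogenic, 143 immune, 129 mural, 10 Schwann and 24 adipocyte regions. Of the 47 genes 45 had a region, and Tcf21, a fibroblast transcription factor, and Cd68, a macrophage lysosomal protein, had none. A region at an annotated transcription start was listed for 36 of them. No such region was listed for Emcn, Lum, Adgre1, Mrc1, Itgam, Spi1, Rgs5, Adipoq and Cidec.

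Muscle fibres are large cells with many nuclei, and they lie among capillaries lined by endothelial cells and wrapped by mural cells (pericytes and smooth muscle). Fibro-adipogenic progenitors make the connective tissue between the fibres, macrophages patrol it, Schwann cells cover the nerves and adipocytes store fat. Each cell type opens the promoters and enhancers of its own genes. In a preparation of nuclei from whole muscle, the openness at such a gene therefore averages over a minority of nuclei where it may be open and a majority of fibre nuclei where it is usually closed.

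The 8 libraries were made by ATAC-seq, where a transposase inserts adapters into open DNA. All mice carried the same genotype, Cre+:iMSBmal1 fl/fl, and were 6 months old. In 4 libraries the treatment was Vehicle, and in the other 4, labelled iMSBmal1KO, it was Tamoxifen, which activates an inducible Cre and so removes the floxed part of Bmal1, a transcription factor of the circadian clock. Each library came from 50000 nuclei of 2 whole gastrocnemius muscles, purified on sucrose cushions. The labels name neither the promoter that drives Cre nor the time of day, so which of the cells described here had recombined cannot be told from them. Tamoxifen and the knockout also cannot be told apart, since no group had one without the other. The labels do not say that libraries of a group came from separate mice, and p-values measure the spread between these libraries.

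The signal in the table behaved as reads divided by a factor per library, and the libraries held 4.31 M to 29.5 M read equivalents in regions. Vehicle replicate 4 was the shallowest and had 24.9% of regions at 0. Reads from the mitochondrial chromosome took 2.26% to 16.5% of the Vehicle and 1.11% to 3.06% of the iMSBmal1KO libraries. At the targeted gene, listed as Arntl, the summed signal of 82 regions was 1942 to 2688 in Vehicle and 3023 to 3421 in iMSBmal1KO. Accessibility does not show the deletion itself, because the labels do not give the floxed exon.

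In the Vehicle libraries the starts of these genes were weakly accessible. The start signal of a gene is here the summed signal of its regions between 1000 bp before and 100 bp after an annotated start, and levels of different genes are compared per kb of those regions. The median level of the 36 genes was 58.8 per kb, against 157.3 per kb over all 20237 genes with such regions. All 36 lay at or below the 61.0 percentile of those genes, and 5 lay above the middle of the order, Gsn, Vwf, Mcam, Pdgfra and Cd34. By list the median was 105.0 per kb for the mural, 93.1 for the fibro-adipogenic, 52.5 for the endothelial and 39.2 for the immune genes. The 2 Schwann genes had a median of 47.8 per kb, and Pparg, the adipocyte gene with a start region, had 45.0.

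Most fast-fibre genes stood higher. Of 14 fast-fibre genes 13 had start regions, with a median of 1080 per kb, from 74.3 per kb for Myh1, a myosin heavy chain, which lay below several of the markers, to 1819 ± 460 per kb (SD, n = 4) for Acta1, the skeletal muscle actin. Slow-fibre genes had a median of 58.8 per kb and muscle stem cell genes of 62.6. Of 10 genes listed as silent in muscle, 3 had a start region, Gfap, Ins2 and Afp, with 78.5, 52.0 and 32.0 per kb. Whether these 3 are silent in every cell type of muscle was not measured. Of the 36 marker genes 22 lay at or below the highest of them, Gfap, so this count rests on that gene.

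**Figure D1:**
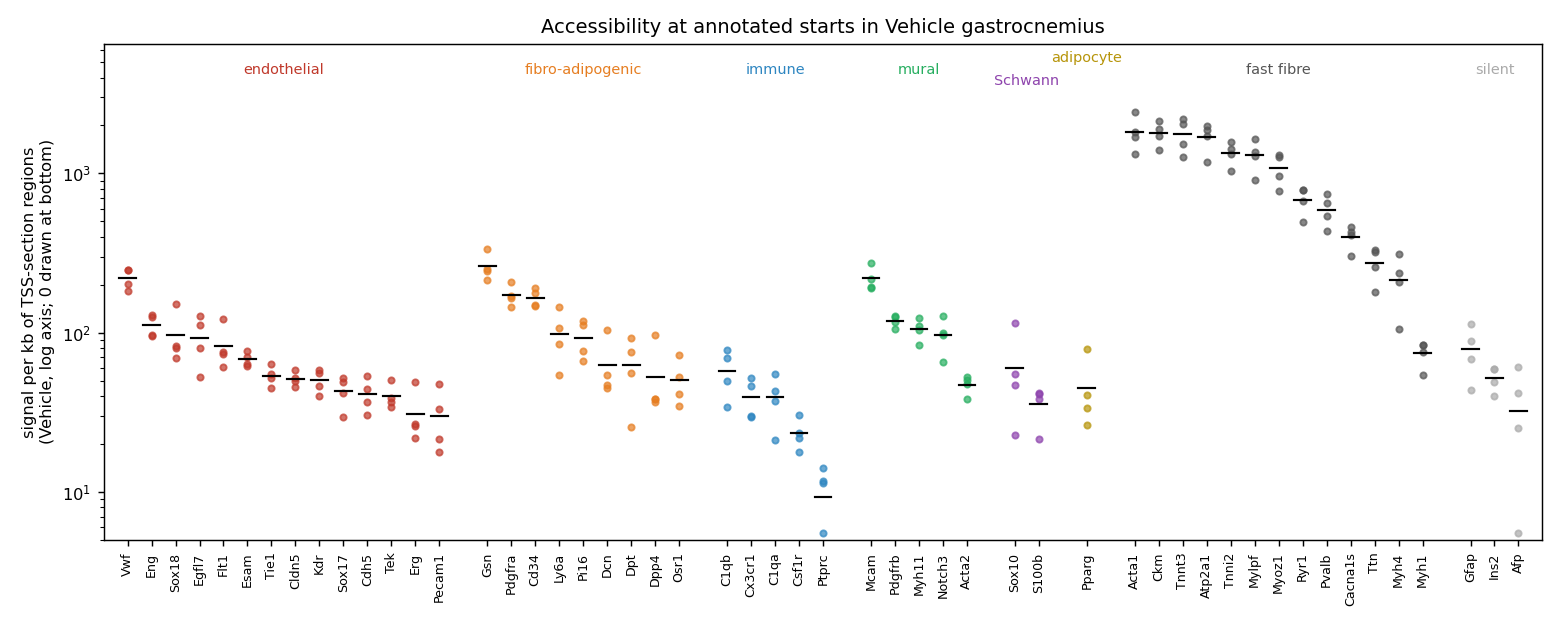
Start signal per kb (vertical log axis, signal units per kb) in each of the 4 Vehicle libraries (points) with the mean (bar). Every marker gene with a start region is shown by cell type, beside fast-fibre genes and genes listed as silent in muscle. A value of 0 is drawn at the bottom edge. The 36 marker genes have means of 9.29 to 260.7 per kb. Fast-fibre genes run from 74.3 to 1819 per kb and the genes listed as silent from 32.0 to 78.5 per kb.

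Among the 14 endothelial genes with start regions, Vwf, the von Willebrand factor that endothelial cells store for clotting, had the highest level, 219.5 ± 32.6 per kb, and Eng, a co-receptor for TGF-beta family ligands, came next with 111.6 ± 18.1 per kb (SD, n = 4 each). Vwf was above Eng in all 4 Vehicle libraries, and the ranges did not overlap. The lowest were Erg, a transcription factor of the ETS family, at 30.9 ± 12.3 per kb and Pecam1, the junction protein CD31, at 30.1 ± 13.5 per kb (SD, n = 4 each), and their ranges overlapped. Receptors for vascular growth factors lay between, with Flt1 at 82.6 ± 26.7, Kdr at 50.1 ± 8.55 and Tek at 40.0 ± 7.16 per kb (SD, n = 4 each).

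Of the 9 fibro-adipogenic genes with start regions, Gsn, the actin-severing protein gelsolin, had the highest level of all the marker genes, 260.7 ± 51.2 per kb. Pdgfra, the receptor that defines these progenitors, followed with 171.3 ± 26.8 per kb and Cd34, a surface sialomucin, with 166.3 ± 21.3 per kb (SD, n = 4 each). The lowest was Osr1, a transcription factor of fibroblast progenitors, at 50.3 ± 16.3 per kb. Gelsolin is not particular to fibroblasts, and the table annotated 51 regions to Gsn.

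The immune list was the weakest at its starts. C1qb and C1qa, which encode chains of the complement protein C1q made by macrophages, had 57.8 ± 19.7 and 39.2 ± 14.1 per kb (SD, n = 4 each). Between them came the region listed for Cx3cr1, the fractalkine receptor of monocytes and macrophages, with 39.4 ± 11.3 per kb, which lies outside that RefSeq gene. Ptprc, the pan-leukocyte protein CD45, had the lowest level of the 36 genes, 9.29 ± 6.31 per kb, with 0 to 7 reads in any of the 8 libraries. Its start signal was 2.13, 2.05, 2.54 and 0 in Vehicle and 1.71, 0, 4.77 and 8.78 in iMSBmal1KO, which overlapped. Csf1r, the receptor for the macrophage growth factor, had 23.4 ± 5.26 per kb with 1 to 8 reads. Levels that rest on so few reads are imprecise, and 5 immune genes had no start region.

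Mural genes led with Mcam, the adhesion protein CD146, which endothelial cells also carry, at 219.6 ± 39.4 per kb. Pdgfrb, the pericyte receptor for platelet-derived growth factor, had 118.8 ± 9.99 per kb and Myh11, smooth muscle myosin, 105.0 ± 16.3 per kb. Acta2, smooth muscle actin, was the lowest with 47.2 ± 6.08 per kb (SD, n = 4 each). Mcam lay above the other 4 mural genes in every Vehicle library, and Pdgfrb and Myh11 overlapped.

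Promoters of 3 of these genes are printed because they show kinds of start found in the list, an endothelial, a macrophage and a CpG-rich one. RefSeq (GRCm38.p6) held promoter windows, from 250 bases before to 50 after the start, for 30 of the 47 genes, 40 windows in all. Vwf had no entry, so Eng stands for the endothelial list, C1qb is the highest immune gene, and Mcam was added after the values were seen. Each sequence runs 5′ to 3′ on the strand of its gene. Capitals mark AGGAAG or its reverse complement CTTCCT, the core bound by ETS family factors.
Eng: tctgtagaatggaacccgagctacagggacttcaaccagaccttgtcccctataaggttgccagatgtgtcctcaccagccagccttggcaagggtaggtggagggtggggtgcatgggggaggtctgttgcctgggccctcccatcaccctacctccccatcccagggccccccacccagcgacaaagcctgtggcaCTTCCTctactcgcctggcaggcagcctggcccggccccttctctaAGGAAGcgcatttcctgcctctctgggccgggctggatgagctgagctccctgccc
C1qb: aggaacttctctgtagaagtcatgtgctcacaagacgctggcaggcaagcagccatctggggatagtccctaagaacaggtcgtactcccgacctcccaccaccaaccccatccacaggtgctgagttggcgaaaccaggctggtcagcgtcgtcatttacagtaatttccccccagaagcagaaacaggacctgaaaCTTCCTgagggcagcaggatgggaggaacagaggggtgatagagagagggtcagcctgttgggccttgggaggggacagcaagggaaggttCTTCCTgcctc
Mcam: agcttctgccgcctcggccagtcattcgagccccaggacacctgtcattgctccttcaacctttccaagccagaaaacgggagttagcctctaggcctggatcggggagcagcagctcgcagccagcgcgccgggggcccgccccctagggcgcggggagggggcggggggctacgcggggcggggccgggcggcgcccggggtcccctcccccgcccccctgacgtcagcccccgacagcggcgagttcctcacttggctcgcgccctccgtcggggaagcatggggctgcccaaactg
The Eng window is chr2:32646345-32646644 (plus strand), that of C1qb chr4:136886151-136886450 (minus strand) and that of Mcam chr9:44134408-44134707 (plus strand).

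Positions are counted from the start base as 0. The Eng promoter held 2 matches, with first bases at -52 and -6, and the table listed a region from -68 to 75 over them with a signal of 26.7 ± 6.14, while a second region from -437 to -234 had 15.4 ± 3.52 (SD, n = 4 Vehicle). In C1qb there were 2 matches, at -52 and 39, and the stronger of its regions in the window, from -151 to -27, had 11.97 ± 4.89. The Mcam window held no match and 29 CpG pairs, against 6 in each of the other windows. Its strong region, from -488 to -185 with a signal of 180.9 ± 35.4, lay mostly upstream of the printed window, and the regions within reach of the start itself were weak, 6.53 ± 3.46 from -98 to -18 and 16.9 ± 6.23 from 31 to 151 (SD, n = 4 Vehicle). Over the 40 windows 19, or 47.5%, held AGGAAG on either strand, against 11613 of 32851 promoters (35.35%). The E-box CACGTG, the letters that BMAL1 with its partner prefers, was in 0 of the 40 windows and in 7.15% of all promoters. These counts describe letters in a window of 300 bases and no binding.

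Pooled over all lists, the strongest regions lay away from annotated starts. Start regions made up 157 of the 819 regions of the marker genes. Of the 10 regions with the highest Vehicle signal per kb, 0 were start regions, and the highest start region, that of Mcam at 595 ± 116 per kb, came 13th. Among the 819 regions 7 (0.855%) were in the top 1% of all regions of the table, 3 endothelial, 1 fibro-adipogenic and 3 immune, and none was a start region. These names are those of the lists, and which cell types had the regions open was not measured.

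The strongest was in intron 2 of Flt1, the VEGF receptor 1, chr5:147611435-147611711, 22.7 kb from the annotated start. Its signal was 2187, 2224, 2542 and 1226 in Vehicle libraries 1 to 4, a level of 7409 ± 2061 per kb (SD, n = 4) at the 99.99 percentile of all regions. That level was above the 3163 per kb of the strongest start region of Ckm, a fast-fibre gene. The Flt1 region held 88.0% ± 6.78 of the summed signal of the 46 Flt1 regions in Vehicle (SD, n = 4). Intron 4 of Cdh5, the endothelial cadherin, behaved likewise, since its region at chr8:104127270-104127708 had 735 ± 235 per kb and held 79.6% ± 9.30 of the Cdh5 signal. Erg had a region of 1242 ± 334 per kb at 56.9 kb from its start, chr16:95401908-95402346, annotated as a 5′ UTR exon. Pecam1 had one of 711 ± 97.1 per kb in intron 13, chr11:106677974-106678333 (SD, n = 4 each).

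A pair of immune genes with no or little start signal had strong regions elsewhere. Spi1 encodes PU.1, a transcription factor of myeloid cells and a member of the ETS family, and had no start region. Its region in intron 1, chr2:91084280-91084617, had a signal of 366.7, 338.0, 378.8 and 215.7 in Vehicle, or 964 per kb, and a further one annotated at a transcript end had 750 per kb. Mrc1, the macrophage mannose receptor CD206, had its strongest region in intron 21, chr2:14313638-14313811, with 61.8, 31.9, 237.7 and 365.8 in Vehicle libraries 1 to 4. Their mean was 174.3 with an SD of 156.7, and the highest 2 came from the Vehicle libraries with the highest mitochondrial shares, 5.51% and 16.5%. Whether this library property played a part in the Mrc1 value was not tested.

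For the fibro-adipogenic list, Gsn had the strongest region, 1602 ± 312 per kb at 21.3 kb from its start, chr2:35277687-35278090. Dpt, the matrix protein dermatopontin, had 79.6% ± 5.47 of its signal in an intron 1 region 1.80 kb from the start, while its start regions held 3 to 33 reads. Pdgfra differed from these, with 64.3% ± 5.26 of its signal in a single start region (SD, n = 4 each). This contrast rests on the annotation, since that region begins at chr5:75155953, downstream of the RefSeq start at chr5:75152251. Regions from 1000 bp before to 100 bp after the RefSeq start had 20.8 ± 13.6 in Vehicle. All start regions of Pdgfra together had 198.9 ± 31.1 (SD, n = 4 each). A start region also held more signal than any other region of the gene for Ly6a, Dcn, Pi16, Osr1 and Cd34. In the other lists this was so for Egfl7, Sox18, Esam, Vwf, C1qb, Pdgfrb, Mcam and Sox10.

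**Figure D2:**
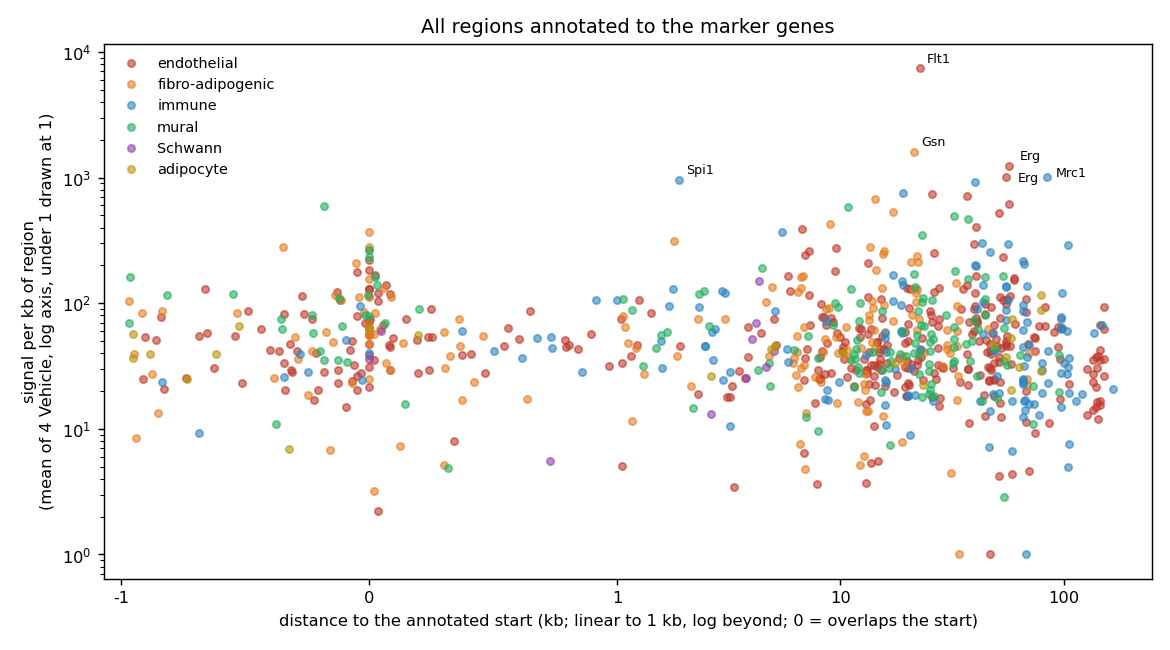
Mean Vehicle signal per kb (vertical log axis) of each of the 819 regions against its distance from the annotated start in kb (horizontal axis, linear to 1 kb and log beyond), coloured by cell type; regions under 1 are drawn at 1. The highest points are the Flt1, Gsn, Erg, Mrc1 and Spi1 regions at 1.89 to 84.2 kb, above every point at the starts.

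Annotation limits some of these assignments. Of the 48 regions given to Cx3cr1 45 lay more than 1 kb outside the RefSeq gene, its single start region among them, and 20 lay within 1 kb of other RefSeq genes. The same held for 21 of 56 Pecam1, 2 of 17 Osr1 and 1 of 14 Csf1r regions, which lay more than 1 kb outside their genes. Values given for Cx3cr1 are therefore those of a stretch of chromosome 9 and not surely of that gene.

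Between the groups, no marker gene passed the test of its start signal. Of the 36 genes 30 passed the filter on low signal, 14 endothelial, 8 fibro-adipogenic, 2 immune, 5 mural and 1 adipocyte, while Dpt, Ptprc, Cx3cr1, Csf1r, Sox10 and S100b did not. By limma with Benjamini-Hochberg adjustment over all 16451 genes tested, 0 of the 30 passed an adjusted p of 0.05, against 0.0851% of all genes, and their adjusted p ran from 0.526 to 0.993. At an unadjusted p under 0.05 there were also 0 of 30, against 10.2% of all genes (9.05% higher and 1.2% lower in iMSBmal1KO). Fewer nuclei of a cell type and less open chromatin in each of them cannot be told apart in such a bulk preparation.

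For most tested genes the estimates limited the change of the bulk start signal. They do not limit the change within the minority of nuclei that belong to a cell type. For 26 of the 30 the 95% interval lay within a 2-fold change in either direction, and the 4 others were Pecam1, Ly6a, C1qa and C1qb. All genes together shifted, with a median log2 change of 0.17 and 75.3% of estimates above 0, on the log2(signal + 1) scale, iMSBmal1KO minus Vehicle. That shift was 0.04 when libraries were scaled to total nuclear reads and 0.01 with loess scaling. Of the 30 marker genes 13 had a positive estimate and 6 lay above the shift, and their median was -0.10, which is -0.26 from that of all genes. Intervals of all 30 held both 0 and the shift.

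**Figure D3:**
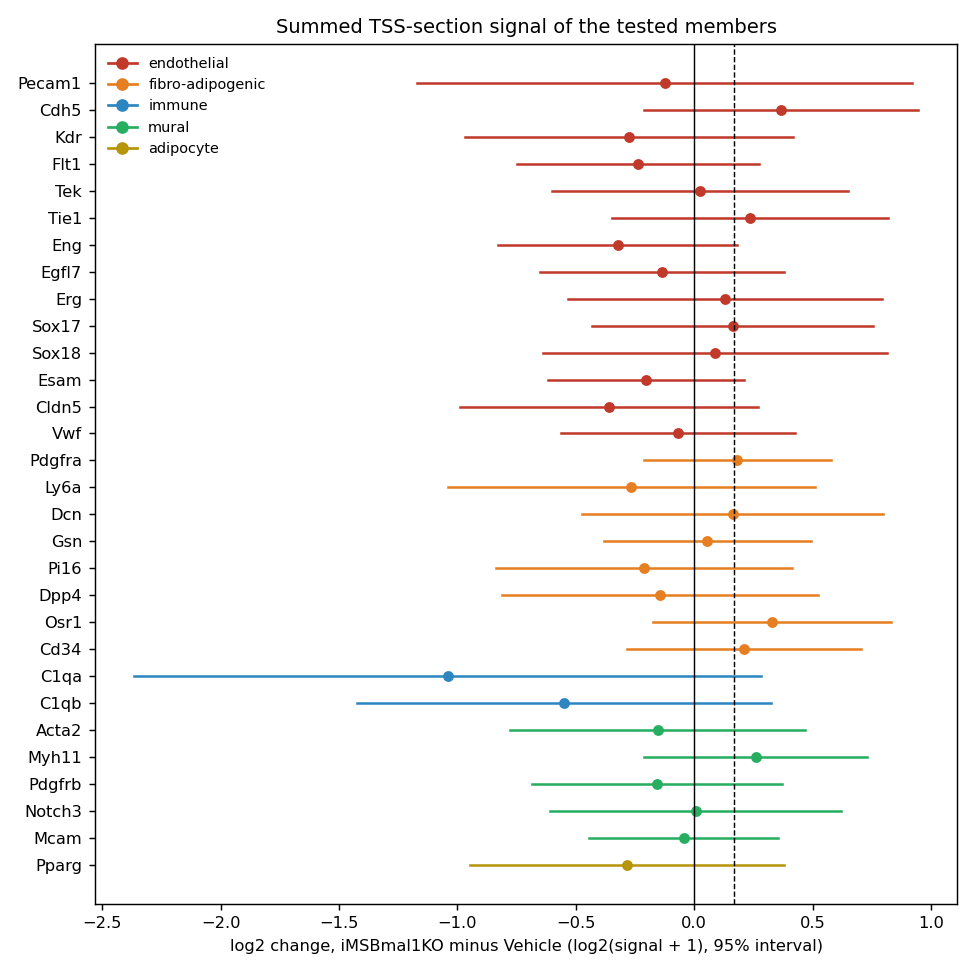
Log2 change of start signal, iMSBmal1KO minus Vehicle, for the 30 tested genes (points) with 95% intervals (lines), coloured by cell type; the solid line is 0 and the dashed line the median over all genes, 0.17. Every interval crosses both lines, and the widest are those of C1qa and Pecam1.

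Endothelial genes had a median log2 change of -0.10 over 14, 6 positive and 8 negative. Relative to all genes this was -0.26, from -0.33 to -0.12 (without Vehicle replicate 4) when 1 library was left out. The same relative median over 12 other endothelial genes, among the companions described at the end, was -0.04 (9 positive, 3 negative). Eng had a summed start signal of 52.2, 40.1, 39.4 and 53.2 in Vehicle libraries 1 to 4 and 40.7, 41.0, 32.2 and 32.6 in the iMSBmal1KO libraries. Its groups overlapped, and the log2 change was -0.32 ± 0.25 (SE), with 0.585 as the adjusted p in limma. For Cdh5 the values were 21.3, 25.7, 17.8 and 31.3 against 32.1, 35.1, 31.0 and 25.1, for which limma gave a log2 change of 0.37 ± 0.28 (SE) and an adjusted p of 0.588. This was the highest estimate of the 30 and the groups overlapped here too. Vwf, at 57.6, 57.5, 42.6 and 46.9 against 56.9, 57.7, 35.8 and 46.4, had an estimate of -0.07 ± 0.24 (log2, SE, adjusted p of 0.916 in limma). Pecam1 rested on 2 to 39 reads per library, with 13.9, 5.14, 9.53 and 6.25 against 16.7, 4.18, 14.3 and 2.51, and its estimate was -0.12 ± 0.51 (log2, SE, adjusted p of 0.929 in limma). In Cldn5, the tight junction protein claudin 5, all 4 iMSBmal1KO values (18.8, 18.4, 19.1 and 13.8) lay below all 4 Vehicle values (20.3, 25.7, 22.9 and 21.9). This was the single gene of the 30 whose groups did not overlap, against 4.28% of all genes (3.45% higher and 0.827% lower), and its log2 change of -0.36 ± 0.31 (SE) did not pass, at an adjusted p of 0.618 in limma. Cldn5 was not named by the rule and is given because of that separation.

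Fibro-adipogenic genes had a median of 0.11 over 8, 5 positive and 3 negative. Relative to all genes this was -0.06, and it ran from -0.18 (without iMSBmal1KO replicate 1) to 0.022 (without Vehicle replicate 4) when 1 library was left out. Pdgfra, at 196.1, 241.5, 167.1 and 190.7 in Vehicle, had 213.2, 262.6, 212.3 and 210.8 in iMSBmal1KO. Apart from iMSBmal1KO replicate 2, its iMSBmal1KO values lay inside the Vehicle range, and limma gave a log2 change of 0.18 ± 0.19 (SE) and an adjusted p of 0.693. Osr1 had 35.2, 72.9, 41.9 and 53.2 against 73.2, 66.9, 54.9 and 53.9, so that limma gave a log2 change of 0.33 ± 0.25 (SE) at an adjusted p of 0.577. Its groups overlapped. Gsn had 141.8, 194.2, 144.9 and 125.1 against 196.5, 184.8, 108.6 and 148.0. Its Vehicle mean was 151.5 ± 29.8 (SD, n = 4), and its iMSBmal1KO mean of 159.5 ± 39.7 (SD, n = 4) differed by less than either spread (adjusted p of 0.922 in limma).

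The 2 tested immune genes had the most negative estimates. Immune genes under the filter did not share this direction. Without a filter limma gave 0.54 ± 0.70 for Ptprc, 0.20 ± 0.50 for Csf1r and -0.14 ± 0.48 for Cx3cr1 (log2, SE), all from few reads. C1qa had a summed start signal of 15.99, 6.16, 10.8 and 12.5 in Vehicle libraries, against 14.6, 7.53, 7.16 and 0 in iMSBmal1KO, where replicate 4 had no read. Its groups overlapped and the log2 change was -1.04 ± 0.64 (SE), its adjusted p in limma being 0.526. C1qb, its neighbour on chromosome 4, had 9.59, 19.5, 14.0 and 21.9 against 22.7, 9.20, 13.1 and 3.76, where limma gave -0.55 ± 0.43 (log2, SE) at an adjusted p of 0.591. In both genes iMSBmal1KO replicate 4 was the lowest library and iMSBmal1KO replicate 1 was among the 2 highest. Without iMSBmal1KO replicate 4 the estimates are nearer to 0, at -0.20 and -0.13. Over all 5 regions of C1qa the log2 change was -0.99 ± 0.38 with an unadjusted p of 0.0173 and a limma adjusted p of 0.50 over 22224 genes. In that fit 2 of the 43 marker genes tested, C1qa and S100b, had an unadjusted p under 0.05, against 2106 of the 22224 genes.

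Among the mural genes 2 of 5 estimates were positive. Mcam had 347.5, 274.3, 244.0 and 240.8 in Vehicle and 210.2, 296.9, 257.6 and 308.6 in iMSBmal1KO, with a log2 change of -0.04 ± 0.20 (SE, adjusted p of 0.936 in limma). Myh11 had 53.3, 50.3, 59.7 and 40.6 against 65.9, 71.1, 51.3 and 56.5, a difference of 0.26 ± 0.23 on the log2 scale (SE, adjusted p of 0.633 in limma). Groups overlapped in both. Pdgfrb had 54.4, 64.7, 60.4 and 65.7 against 79.6, 72.8, 29.8 and 51.4, so that the iMSBmal1KO values lay on both sides of the Vehicle range, and limma gave -0.16 ± 0.26 (log2, SE, adjusted p of 0.803). Acta2 had 19.2, 23.6, 26.1 and 25.0 against 20.97, 19.2, 15.5 and 30.1, and limma gave -0.15 ± 0.31 (log2, SE, adjusted p of 0.842).

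Starts of both Schwann genes rested on few reads. S100b, a calcium-binding protein of glia, had a start signal of 3.20, 6.16, 5.72 and 6.25 in Vehicle and 10.7, 10.9, 9.54 and 10.0 in iMSBmal1KO. These groups did not overlap, but the values rested on 2 to 25 reads, the gene was under the filter of the main fit. Without a filter limma gave 0.87 ± 0.43 (log2, SE) for it, at an unadjusted p of 0.0540 and an adjusted p of 0.532. Over all 7 regions its log2 change was 0.45 ± 0.21, with an unadjusted p of 0.040 and a limma adjusted p of 0.517. An unadjusted p under 0.05 was seen in 2 of the 43 marker genes in that fit, against 2106 of 22224 genes. Sox10, the transcription factor that defines Schwann cells, had 7.46, 3.08, 6.35 and 15.6 against 3.85, 2.51, 1.19 and 1.25, from 1 to 10 reads. Its groups overlapped, and without a filter limma gave -1.41 ± 0.55 (log2, SE), at an unadjusted p of 0.0153 and an adjusted p of 0.516. The 2 Schwann genes thus had estimates of opposite sign. Pparg, the regulator of fat cell formation and the adipocyte gene with a start region, passed the filter and had 21.3, 16.4, 25.4 and 50.03 against 18.8, 17.6, 29.8 and 20.1, which limma estimated at -0.28 ± 0.33 (log2, SE) with an adjusted p of 0.715.

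Summed over each list, start signal overlapped between the groups for all 6 cell types. Endothelial sums were 521.1 ± 54.4 in Vehicle against 486.2 ± 51.6 in iMSBmal1KO, fibro-adipogenic sums 621.9 ± 114.1 and 675.7 ± 137.8, and mural sums 436.2 ± 38.7 and 432.8 ± 49.7 (SD, n = 4 each). Immune sums were 41.6 ± 2.50 and 37.3 ± 8.65. Over all regions of a list the sums overlapped as well, for example 6463 ± 541 and 6915 ± 1018 for the endothelial genes, where the single Flt1 region gave 2045 ± 569 and 2725 ± 1195 (SD, n = 4 each).

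**Figure D4:**
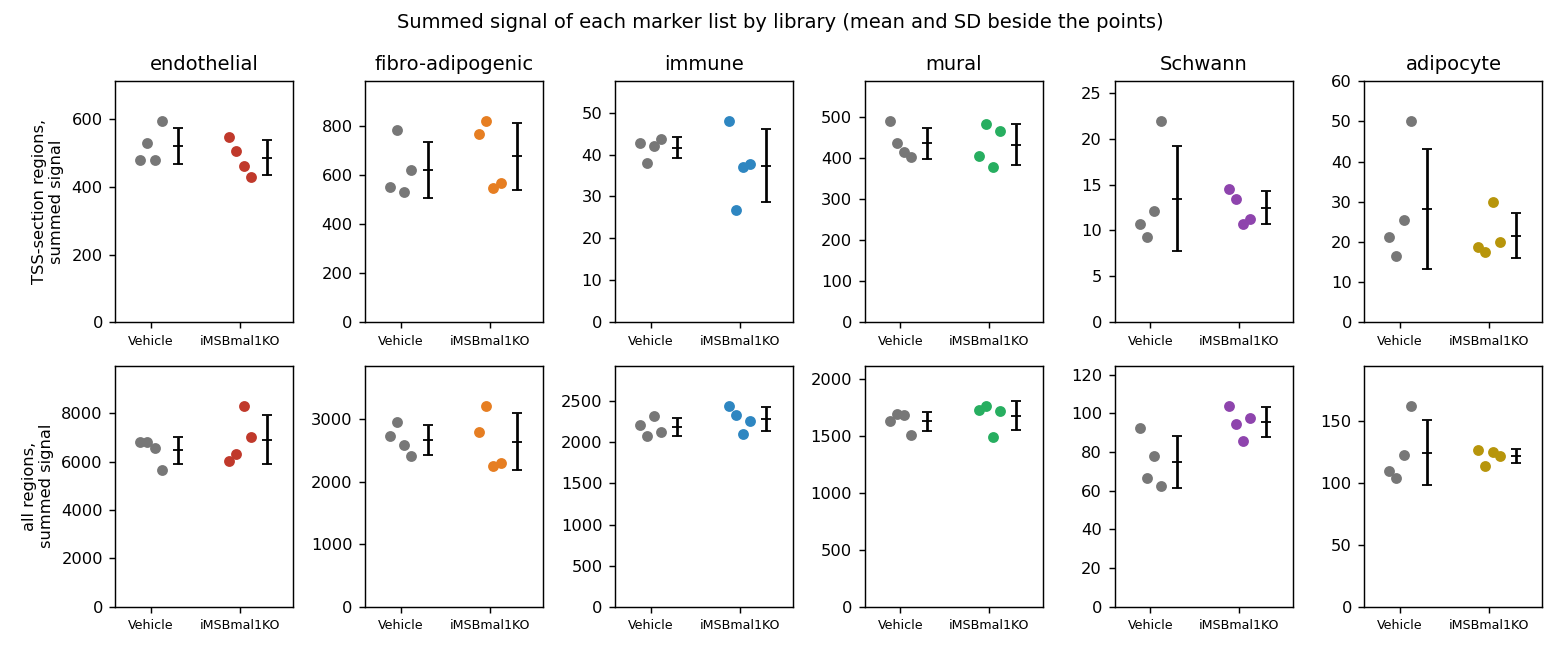
Summed signal (vertical axes from 0, signal units) of each list in each library (points) with mean and SD beside them, Vehicle in grey and iMSBmal1KO in colour; the upper row sums start regions and the lower row all regions. The groups overlap in all 12 panels.

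Of the 819 regions 175 passed the filter, 71 endothelial, 41 fibro-adipogenic, 25 immune, 34 mural, 2 Schwann and 2 adipocyte. By limma with adjustment over all 124901 regions tested, 0 of the 175 passed an adjusted p of 0.05, against 0.0881% of all regions. At an unadjusted p under 0.05 there were 12, or 8 higher and 4 lower in iMSBmal1KO, against 9.22% of all regions (6.59% higher and 2.63% lower). Groups did not overlap in 9 of the 175, 5 higher and 4 lower, against 5.48% (3.62% and 1.87%). These shares are close to those of the whole table. Estimates were positive in 92 of 175, against 62% of all regions. Relative to the median of all regions, 0.12, the median log2 change was -0.26 for the endothelial regions (28 positive, 43 negative), -0.04 for the fibro-adipogenic, -0.11 for the mural and 0.18 for the immune regions. With single libraries left out the endothelial value ran from -0.29 to -0.13 (without Vehicle replicate 4), the fibro-adipogenic from -0.14 (without iMSBmal1KO replicate 2) to -0.025, the mural from -0.11 to 0.000725 (without Vehicle replicate 1) and the immune from -0.074 (without iMSBmal1KO replicate 1) to 0.20. Of the 25 immune regions 11 were those given to Cx3cr1, and the other 14, of which 9 were positive, had a relative median of 0.088. Companion genes of the same cell types had relative medians of 0.10 for endothelial regions (28 positive, 12 negative) and -0.29 for immune regions (12 positive, 18 negative). Both signs were opposite to those of the marker regions. Fibro-adipogenic and mural companion regions had -0.01 and 0.02.

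Single regions with the smallest unadjusted p per list are given as values, none of which passed. In intron 15 of Mrc1, chr2:14295544-14295791, the signal was 52.2, 78.1, 50.2 and 21.9 in Vehicle and 108.7, 104.5, 84.7 and 87.8 in iMSBmal1KO. The groups did not overlap, and the log2 change was 1.04 ± 0.31 (SE), with 0.340 as its adjusted p in limma. At the Mrc1 region of intron 21, already named for its uneven Vehicle values, iMSBmal1KO libraries had 32.96, 30.9, 76.3 and 62.7 and the estimate was negative, -1.27 ± 0.80. Estimates at these 2 regions of the gene had opposite signs.

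In intron 1 of Tek, the receptor for angiopoietins, chr4:94776862-94777150, the signal was 17.1, 21.6, 15.3 and 28.1 in Vehicle and 14.98, 9.20, 3.58 and 12.5 in iMSBmal1KO. The groups were just separate, and limma gave -1.06 ± 0.40 (log2, SE) with an adjusted p of 0.482. In Gsn, the region at chr2:35278478-35278548 changed by -0.98 ± 0.42 and its groups overlapped (limma adjusted p of 0.511). In Notch3, a receptor of mural cells, the region of coding exon 33, chr17:32122477-32122605, had 18.1, 20.6, 22.9 and 21.9 against 9.42, 10.0, 17.9 and 13.8, with no overlap and an estimate of -0.70 ± 0.33 (log2, SE), adjusted p of 0.534 in limma.

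Further regions are named because their groups did not overlap, after their values were seen. Intron 11 of Csf1r, chr18:61122770-61122919, had 29.8, 21.6, 26.1 and 21.9 in Vehicle and 47.5, 41.0, 35.8 and 48.9 in iMSBmal1KO, which limma estimated at 0.78 ± 0.27 (log2, SE), adjusted p of 0.441. Intron 15 of Pecam1, chr11:106660050-106660184, had 3.81 to 9.59 in Vehicle and 11.3 to 14.3 in iMSBmal1KO, from 3 to 33 reads. Intron 2 of Spi1, chr2:91101550-91101769, changed by 0.40 ± 0.22 and intron 1 of Erg, chr16:95472941-95473255, by -0.39 ± 0.20, with limma adjusted p of 0.576 and 0.560. A region given to Pecam1 but lying beyond the RefSeq gene, chr11:106742548-106742733, had 3.18 to 7.19 in Vehicle and 9.845 to 17.9 in iMSBmal1KO, from 2 to 23 reads. One given to Cx3cr1, also outside that gene, chr9:119970320-119970470, had 15.6 to 21.3 in Vehicle and 9.20 to 14.3 in iMSBmal1KO, from 5 to 26 reads. Of the 9 regions with separate groups, the immune list held 3 higher and this lower one, out of its 25 tested regions. Over all regions tested the shares were 3.62% higher and 1.87% lower, and a difference of the immune list from them was not tested. The strong Flt1 region had 1782, 1928, 4385 and 2805 in iMSBmal1KO, which overlap the Vehicle values, and its log2 change was 0.37 ± 0.30 (SE), at an adjusted p of 0.688 in limma.

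**Figure D5:**
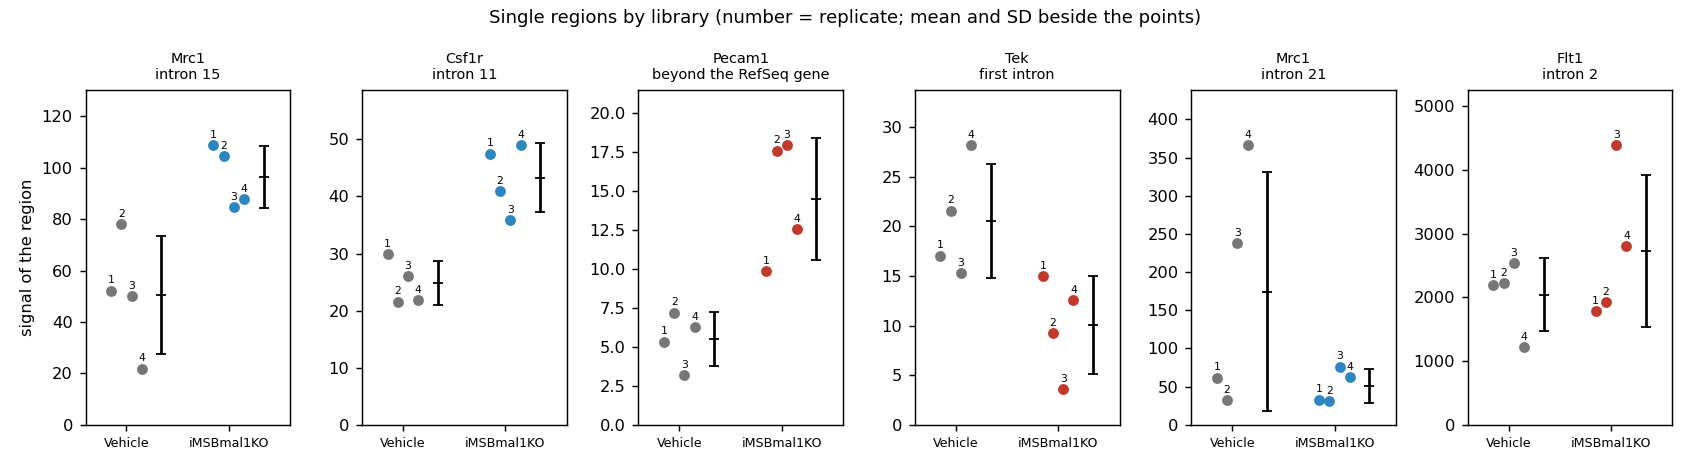
Signal of 6 regions (vertical axes from 0, signal units) in each library (points numbered by replicate) with mean and SD beside them, Vehicle in grey and iMSBmal1KO in colour. The groups separate in the Mrc1 intron 15, Csf1r, Pecam1 and Tek panels and overlap at Mrc1 intron 21 and at Flt1 intron 2.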

How the data were processed

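ATAC-seq signal was deposited as 1 table of regions by 8 libraries, with region coordinates, the annotated gene and the gene section. The authors made these values with tools that the submitters' processing notes list without roles or order, Bowtie2, MACS2, Partek and DESeq2, and with the builds mm10 and GRCm39. The deposited signal behaved as read counts divided by 1 factor per library, but not every value was a whole multiple, so no count test was run. Coordinates are as the table lists them; 99.7% of genes whose symbol matched RefSeq GRCm38.p6 (82.7% of all names) overlapped their regions in that build. Depth per value is therefore given as read equivalents.

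Regions were tested with limma 3.58.1 in R 4.3.3 (trend, robust, group as the single term, all 8 libraries) on log2(signal + 1), with Benjamini-Hochberg adjustment over all features tested and a threshold of 0.05. The filter asked for 0.762 read equivalents per M, which is 10 reads in a library of median depth, in 4 or more libraries and 15 reads in all. Gene values were sums of signal over start regions, or over all regions. On simulated data with 200 changed features, the region test found 12% of 2-fold and 73% of 4-fold changes with 0 false calls, and the gene test 56% and 98% with 4 false calls. The changed features were drawn at random from all features tested, and the dispersion between libraries was fixed.

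The genes and lists were chosen with earlier results of these data known. Genes given in full were, per list, the 2 highest and the lowest by Vehicle start level and the 2 with the smallest p, with the region of smallest p in lists of 4 or more. Others are said to have been chosen after their values were seen, and this holds for the strongest regions. Alternatives covered the pseudocount, filter, scaling, voom, the replicate block, and leaving out each library. Tables were made with Python 3.11.15 and pandas 2.3.3.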

Additional observations from a re-analysis of the deposited data

Results flagged for a closer look

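In 8 of 134 groups of 4 libraries, 1 library stood apart from the other 3, its gap to the nearest value taking more of the group's whole range than Dixon's limit at the 95% level. Chance flags about 1 in 20 groups, or 6.7 of these 134. Vehicle libraries gave 3 of them. Sox18, a vascular transcription factor, had a summed start signal of 23.63 in replicate 2 and 10.8 to 12.79 in the others. Dcn, the matrix proteoglycan decorin, had 72.95 in replicate 2 against 31.27 to 38.13, and Dpp4, a surface peptidase of fibroblast progenitors, had 59.41 in replicate 4 against 22.6 to 23.51.

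The other 5 were iMSBmal1KO groups. Replicate 4 was the lowest for Cldn5, with 13.8 against 18.4 to 19.09, and for Ly6a, the progenitor antigen Sca-1, with 10.04 against 35.1 to 38.47. It was the highest for Cx3cr1, with 21.33 against 3.345 to 5.964. Pdgfra had 262.6 in replicate 2 and 210.8 to 213.2 in the other 3. The mural genes summed over all regions had 1490 in replicate 3 and 1722 to 1767 in the others.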

How the results depend on the processing

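Under every fit that was run, at adjusted p thresholds of 0.05 and 0.1, limma called 0 marker genes and 0 marker regions; at an unadjusted p under 0.05 the main fit had 0 genes and 12 regions. The count tests named among the alternatives, edgeR and DESeq2, were not run, because whole reads could not be recovered. Of the changes of named genes and regions, 472 kept their direction under other settings and 15 turned it, and the cause was not tested. Changing the filter or adding the replicate block leaves each log2 change as it was. Those settings could not turn a direction, and they count among the 472. With loess scaling the log2 change turned to -0.038 for the Tek start, -0.064 for Pdgfra, -0.18 for Gsn, -0.061 for Notch3, -0.039 for the Erg region at 57 kb, -0.084 for the Spi1 region of intron 1 and -0.11 for the Mcam start region. With total nuclear reads it turned to -0.10 for Tek, -0.033 for Sox18, -0.071 for Gsn, -0.12 for Notch3, -0.045 for the Erg, -0.072 for the Spi1 and -0.078 for the Mcam region. With voom the Dpp4 change was 0.15. Taking the single strongest start region per gene moved the median level to 113.7 per kb for endothelial, 131.6 for fibro-adipogenic and 233.3 for mural genes.

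Leaving out 1 library turned the sign of named changes in 33 fits and kept it in 347. The lowest and highest log2 changes were -0.32 and 0.29 for Pecam1, -0.13 and 0.17 for Tek, -0.38 and 0.039 for Egfl7, -0.00298 and 0.37 for Erg, -0.016 and 0.30 for Sox17, -0.037 and 0.32 for Sox18, -0.15 and 0.074 for Vwf, -0.51 and 0.18 for Ly6a, -0.046 and 0.43 for Dcn, -0.056 and 0.23 for Gsn, -0.37 and 0.185 for Dpp4, -0.00874 and 0.40 for Cd34. They were -0.34 and 0.13 for Pdgfrb, -0.16 and 0.15 for Notch3, -0.12 and 0.071 for Mcam, -0.49 and 0.024 for Pparg, -0.082 and 0.24 for the Erg region, -0.13 and 0.16 for the Spi1 region and -0.033 and 0.17 for the Mcam region. The median log2 change over regions, relative to all regions, ran from -0.074 (without iMSBmal1KO replicate 1) to 0.20 for immune, -0.11 to 0.000725 (without Vehicle replicate 1) for mural and -0.46 (without Vehicle replicate 2) to 0.41 for the 2 adipocyte regions. Leaving out the regions given to Cx3cr1, a choice made after seeing the data, moved the immune value from 0.18 to 0.088.

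Replicate numbers did not pair the libraries: deviations of same-numbered libraries correlated at -0.06, 0.14, 0.02 and 0.02, and 0 of 4 correlated best with their own number. The replicate block called 0 marker genes and 0 marker regions, and 100 of all regions against 110 in the main fit, but 74 of all genes by start signal against 14. Over all regions the count was 195 without a filter, 58 with TMM factors, 218 with total nuclear reads, 342 with loess and 342 with voom, and 30 (without Vehicle replicate 1) to 256 (without Vehicle replicate 4) when 1 library was left out. Over all genes it was 28, 31 and 34 with total reads, loess and voom, and 7 to 334 (without Vehicle replicate 2). At this depth most 2-fold changes of a single region would be missed, since the simulated test found 12% of them. For starts summed per gene it found 56%, with changed genes drawn from all genes tested and a fixed dispersion. Marker starts were weaker, at a median of 58.8 per kb in Vehicle against 157.3 over all genes. The 56% therefore does not tell how many 2-fold changes of marker starts would be found.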

Other observations

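Other genes of the same cell types, 74 companions of the lists, had stronger starts. Their median Vehicle level was 89.5 per kb over the 60 with a start region. Genes with the highest level of their list were Lipe, the hormone-sensitive lipase of fat cells that fibres also express, at 731.8 ± 70.3 per kb, Ets1, an ETS family factor of endothelium and lymphocytes, at 641.0 ± 191.8 per kb, and Abcc9, a subunit of the potassium channel of pericytes and muscle, at 511.5 ± 126.6 per kb. Ebf2, a factor of adipogenic progenitors, had 425.7 ± 154.7 per kb and Runx1, a blood cell transcription factor, 236.4 per kb (SD, n = 4 where given). Of the 52 companions tested, 0 passed an adjusted p of 0.05 in limma, against 0.0851% of all genes. An unadjusted p under 0.05 was seen in 2, against 10.2% of all genes, and 30 estimates were positive, against 75.3%.

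Both of those 2 were on the immune list, and their estimates had opposite signs. Their groups were separate, as they were in 4.28% of all genes, and they are named after their values were seen. Runx1 had a summed start signal of 328.3, 316.5, 233.9 and 231.4 in Vehicle, against 487.1, 414.0, 397.2 and 341.2 after Tamoxifen. Limma gave a log2 change of 0.57 ± 0.19 (SE) and an adjusted p of 0.450 for Runx1, which ran from 0.0686 to 0.917 over the alternatives. Cd163, a scavenger receptor of resident macrophages, had 21.3, 18.5, 17.8 and 43.8 against 10.7, 14.2, 11.9 and 12.5. For it the estimate was -0.89 ± 0.35 (log2, SE) at an adjusted p of 0.469 in limma. C1qc, the third C1q gene, was at -0.62 ± 0.34. The 3 C1q genes together had 40.5, 47.3, 47.7 and 59.4 in Vehicle and 54.8, 30.1, 34.6 and 12.5 in iMSBmal1KO, which overlapped through iMSBmal1KO replicate 1. C1qc and this sum were also chosen after the values were seen. Of the 6 immune companions tested, 1 estimate was positive and 5 were negative. Summed over all immune companions, start signal had a mean of 563.5 after Tamoxifen against 467.1 with Vehicle, SDs being 85.8 and 51.1. These groups overlapped. Over all regions limma gave 1.00 ± 0.43 for Fcgr1 and -0.44 ± 0.20 for Laptm5 (log2, SE), both immune companions without a start region.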
